A study of Mus musculus with 9 samples.

Results

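Fos, Fosb, Jun, Junb, Jund, Egr1, Egr2, Egr3, Atf3 and Ier2 are 10 genes of the early transcriptional response, and their transcripts were followed in pre-cDCs, the committed precursors of conventional dendritic cells. The genes were taken by symbol (GENCODE M21) from a table of 51912 genes, whatever their level, and each was read in all 9 RNA-seq samples. Cells came from mixed BM chimeras. Recipients were BL/6 CD45.1/2 mice that had been lethally irradiated and then received a 1:1 graft of BM from WT donors (BL/6, CD45.1) and from Clec9a Cre/Cre donors, which carry CD45.2 and are called DNGR-1 KO here. DNGR-1, encoded by Clec9a, is a receptor that dendritic cells use to sense dead cells, and in Clec9a Cre/Cre mice both copies of the gene are disrupted by Cre. BM gave 3 samples of each genotype, and spleen gave 1 WT sample (replicate 2) and 2 DNGR-1 KO samples. Each was sorted from a pool of a pair of mice, and the study's mice were adult when experiments began. The total of mice given in the paper is too small for 9 separate pairs, so some samples shared mice. The labels do not say which. WT and DNGR-1 KO cells therefore matured in the same kind of host, but they also differed in the CD45 allele and the chromosome 1 segment linked to it, which cannot be told apart from genotype. BM was flushed from bone in FACS buffer without enzyme, whereas spleen was cut and digested warm with collagenase VI and DNase I, so that tissue and the way cells were released cannot be told apart either.

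Fos and Jun family proteins pair through leucine zippers to form AP-1, a transcription factor whose make-up depends on which partners a cell contains. Jun and Fos are activating partners, Junb and Jund can temper Jun activity, and Atf3 is a stress-induced zipper protein of the related ATF family. Egr1, Egr2 and Egr3 are zinc finger factors induced with them, and Ier2 is a small nuclear protein induced within minutes by growth factors. Such genes are switched on without new protein synthesis, through MAP kinases, serum response factor and its Elk partners, and they are known to respond to the warm enzymatic digestion of tissue as well as to signals in the living animal.

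In GRCm38, GENCODE M21 places Fos at chr12:85473890-85477273, Fosb at chr7:19302696-19310051, Jun at chr4:95049034-95052222 and Junb at chr8:84974484-84978718. Jund lies at chr8:70698949-70700616, Ier2 at chr8:84661331-84662852, Egr2 at chr10:67535475-67542188, Egr3 at chr14:70077203-70082614 and Atf3 at chr1:191170296-191218039. The RefSeq promoter table (GRCm38.p6) held 11 start sites for 7 of the 10 genes (Fos, Fosb, Jun, Junb, Jund, Egr2 and Atf3). The 250 bases before a start are printed for Junb and Egr2, which had the most stable and the largest difference between tissues. They are also printed for Fos, which had the highest level per kilobase in BM. All are read 5′ to 3′ on the strand of the gene. Capitals mark a CArG box, the site of serum response factor. The Fos window is chr12:85473640-85473889 on the plus strand, the Junb window chr8:84978749-84978998 on the minus strand, and the Egr2 windows chr10:67537316-67537565 and chr10:67537619-67537868 on the plus strand, both inside the span of the gene and ahead of internal starts.
Fos: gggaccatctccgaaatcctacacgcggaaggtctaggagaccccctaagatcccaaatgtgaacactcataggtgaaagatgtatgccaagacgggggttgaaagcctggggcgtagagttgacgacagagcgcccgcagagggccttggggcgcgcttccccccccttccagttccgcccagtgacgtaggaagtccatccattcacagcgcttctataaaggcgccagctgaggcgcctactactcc
Junb: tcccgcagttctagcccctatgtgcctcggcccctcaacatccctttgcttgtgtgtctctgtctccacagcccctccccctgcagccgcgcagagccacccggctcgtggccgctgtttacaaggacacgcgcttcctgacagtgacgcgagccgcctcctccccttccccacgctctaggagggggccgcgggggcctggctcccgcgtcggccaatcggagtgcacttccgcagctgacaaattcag
Egr2, first window: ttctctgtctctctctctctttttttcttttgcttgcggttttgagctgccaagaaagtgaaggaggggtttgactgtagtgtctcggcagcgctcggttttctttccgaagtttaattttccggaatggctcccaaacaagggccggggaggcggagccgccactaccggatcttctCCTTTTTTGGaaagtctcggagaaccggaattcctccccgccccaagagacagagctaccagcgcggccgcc
Egr2, second window: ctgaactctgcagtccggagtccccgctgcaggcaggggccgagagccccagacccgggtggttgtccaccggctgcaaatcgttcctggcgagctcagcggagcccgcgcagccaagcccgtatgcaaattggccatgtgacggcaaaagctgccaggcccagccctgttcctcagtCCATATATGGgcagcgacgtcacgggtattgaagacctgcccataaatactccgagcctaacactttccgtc

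A CArG box (10 bases) was found in 4 of the 11 windows, all 4 of them Egr2 windows of which 3 overlap, against 1.47% of 32851 promoters of the same length. In both printed Egr2 windows it began 72 bases before the start. An EGR site (GCGNGGGCG) lay 50 bases before the Fosb start and in no other window, against 4.70% of promoters. The CRE (TGACGTCA) was in 1.55% of promoters and the AP-1 site (TGANTCA) in 6.75%, and neither was in any of the 11 windows. Both strands were searched, and the 4 motifs did not overlap each other in these windows. A match is a run of letters only, and binding was not measured. Bases further from a start than these windows reach were not searched. A gene without a match here, such as Fos for the CArG box, may therefore have one beyond its window. Egr1, Egr3 and Ier2 had no window and were not searched.

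Libraries held 17103806 to 23722298 counts by sample and a count of 3 corresponded to 0.127 to 0.179 CPM, the counts-per-million unit used below, in which each library total was scaled by TMM. The label check held, since Clec9a had 905, 1574 and 1766 counts in WT BM and 2459 in WT spleen, against 1 in each DNGR-1 KO BM sample and 0 in both DNGR-1 KO spleen samples. All 10 genes listed as pre-cDC markers (Flt3, Itgax, Zbtb46, Irf8, Csf2rb, Sirpa, Cd74, H2-Ab1, Batf3 and Id2) were above 3 counts in every sample. Cd74 and H2-Ab1 belong to MHC class II presentation, so detection of this list does not by itself identify pre-cDCs. The spleen libraries differed from the BM libraries in other ways. Genes above 3 counts numbered 10813 to 12135 in spleen and 13577 to 15052 in BM, haemoglobin transcripts took 0.85% to 4.66% of counts in spleen and at most 0.0287% in BM, and T and NK cell markers summed to 975 to 3950 CPM in spleen and 14.8 to 45.8 CPM in BM. Neutrophil markers, in contrast, summed to 852 to 2680 CPM in BM and to at most 0.974 CPM in spleen. Of the 8 listed, 6 to 8 were above 3 counts in each BM sample and at most 1 in each spleen sample.

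Per kilobase of exonic length, Fos was the highest member in BM, at a mean of 144 CPM per kb (range 99.9 to 222 over 6 samples), and it ranked at percentile 96.9 of the genes tested. Ier2 followed at 61.0 CPM per kb, Junb at 41.5 and Jun at 32.6, and their ranges overlapped from each to the next. A gap then separated these 4 genes from Atf3 at 1.80, Fosb at 1.38, Egr1 at 0.917, Jund at 0.577 and Egr2 at 0.0968 CPM per kb, whose neighbours in the order overlapped. In spleen the order began with Junb at 145 CPM per kb (121 to 165), then Ier2 at 112 and Fos at 95.9, and neighbours among these 3 overlapped. Jun, at 43.5 CPM per kb, stood below the range of Fos and above that of Atf3 (8.82), Egr2 (8.53) and Egr1 (4.64). Junb moved from percentile 88.3 to 97.1 of tested genes and Jund from 16.4 to 42.0, the latter still near the bottom of the set at 2.96 CPM per kb. Egr3 had 0 counts in all 9 samples, which allows at most 0.127 to 0.179 CPM by sample from counting error alone.

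**Figure D1:**
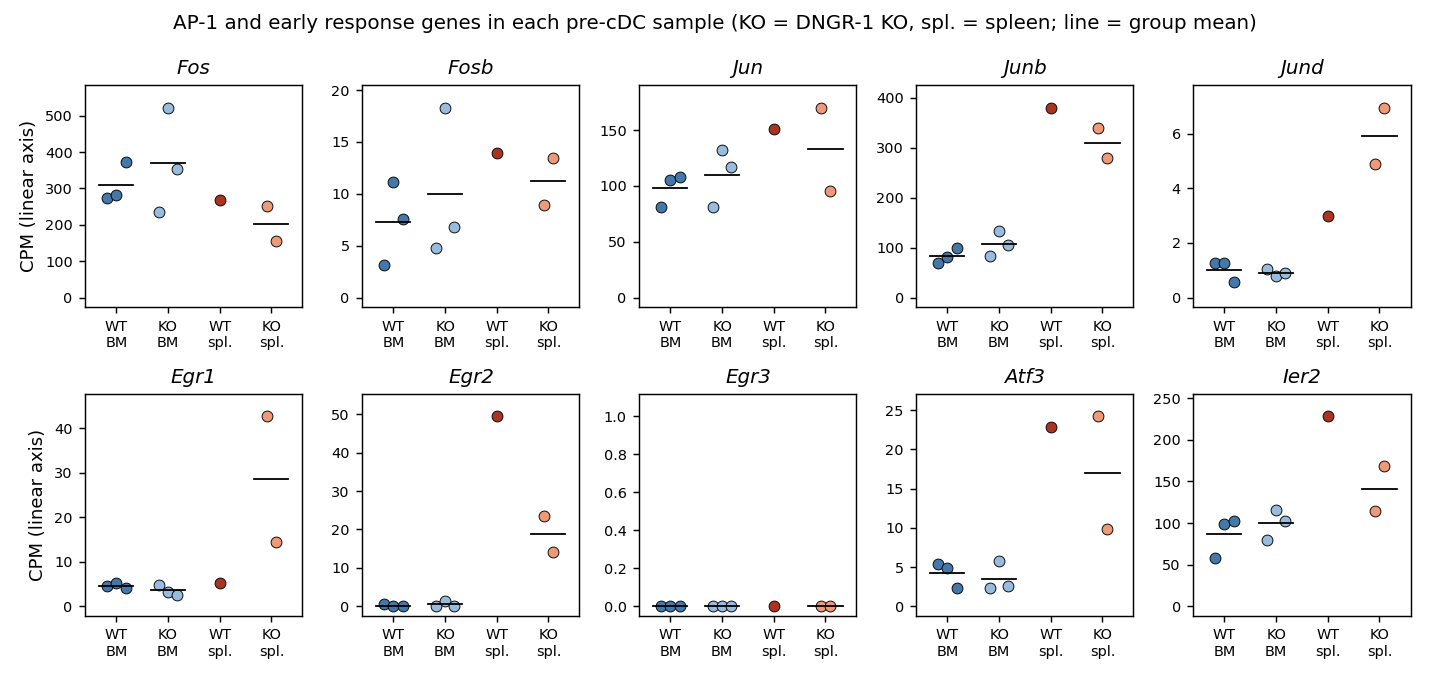
Each panel plots the CPM of 1 gene (linear axis) in each of the 9 samples by group, with a line at the mean where a group has more than 1 sample. Junb, Jund, Egr2 and Atf3 lie higher in all 3 spleen samples than in any BM sample, Fos does not, and Egr1 reaches 42.7 CPM in a DNGR-1 KO spleen sample but 5.18 CPM in the WT spleen sample.

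The first comparison was between DNGR-1 KO and WT pre-cDCs in BM, which addresses whether loss of the receptor changes the cells before they leave. No member passed the test. Of the 10 genes, 8 passed the filter on low counts (Egr2 and Egr3 did not), 0 passed the threshold and 0 reached an unadjusted p under 0.05 (edgeR quasi-likelihood test, Benjamini-Hochberg over 13016 genes). DESeq2 and limma-voom also called 0 members. Over all genes the same test called 4, or 0.0307%, with 498 at an unadjusted p under 0.05.

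Fos counts in WT BM were 4568, 5425 and 7347 (273, 282 and 374 CPM), and in DNGR-1 KO BM 5254, 10700 and 7035 (235, 522 and 353 CPM). The DNGR-1 KO samples included both the lowest and the highest value. The log2 difference was 0.25 ± 0.30 (SE; adjusted p = 0.890 in edgeR). Jun, its usual partner, had 81.2, 105 and 108 CPM in WT BM and 81.4, 132 and 117 CPM in DNGR-1 KO BM, a log2 difference of 0.16 ± 0.25 (edgeR adjusted p = 0.913). For Junb the values were 70.1, 81.7 and 98.8 CPM against 83.2, 134 and 105 CPM, and the genotypes overlapped (0.36 ± 0.25, edgeR adjusted p = 0.861). Ier2 was at 58.0, 98.8 and 102 CPM in WT BM and 80.1, 116 and 103 CPM in DNGR-1 KO BM (0.21 ± 0.27, edgeR adjusted p = 0.903).

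The low members varied more between replicates. Fosb had 3.11, 11.1 and 7.53 CPM in WT BM and 4.74, 18.3 and 6.82 CPM in DNGR-1 KO BM, so that samples of 1 genotype differed by more than the genotype means (log2 0.45 ± 0.58, edgeR adjusted p = 0.900). Egr1 (-0.38 ± 0.43), Atf3 (-0.25 ± 0.54) and Jund (-0.17 ± 0.72) had negative log2 differences no larger than their errors, with adjusted p from 0.889 to 0.973 in edgeR. Egr2 had 8, 0 and 0 counts in WT BM and 4, 27 and 0 in DNGR-1 KO BM, and was not tested there. The median log2 difference of the 8 tested members was 0.19, against 0 over all genes. For no member did the 3 DNGR-1 KO samples all lie above the 3 WT samples, a pattern that 4.79% of all genes tested had.

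A single BM library stood above the others. DNGR-1 KO BM replicate 2 was the highest of the 6 BM samples in 7 of the 9 detected members (Fos, Fosb, Jun, Junb, Egr2, Atf3 and Ier2), and the mean log2 CPM of the 9 genes was 4.31 in it and 3.45 to 3.68 in the other 5. Part of that gap in the mean comes from Egr2, whose BM counts are near the floor and highest in this library. The depth (20551382 counts) and mitochondrial share (0.856%) of the library were within the range of the other BM samples. The same library had the highest sum of the listed pre-cDC markers in BM (11700 CPM, against 3950 to 9480 in the others), a sum that includes Cd74 and H2-Ab1. It also had the highest monocyte and macrophage markers (2080 against 1270 to 1950 CPM) and upstream kinases and factors (1530 against 906 to 1290 CPM). Its heat shock and chaperone sum was the lowest (6830 against 7480 to 9290 CPM). The part of these in the spread of the members was not tested. Without that library the BM log2 difference of Fos was -0.06 and that of Fosb -0.32. WT BM replicate 1 was the lowest for 4 members (Fosb, Jun, Junb and Ier2).

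The comparison of spleen with BM asks what differs between pre-cDCs before and after they leave the marrow, here together with the way the cells were released. Junb, Egr2, Atf3, Jund and Ier2 rose in spleen, none fell, and Fos, Jun, Fosb and Egr1 did not pass the test. In the DNGR-1 KO samples only, 2 members were called, Junb (log2 1.52) and Egr1 (2.99), while Egr2 (5.21), Jund (2.70), Atf3 (2.27) and Ier2 (0.50) were not. Over all 9 samples, 5 of the 9 tested members were higher in spleen and 0 lower (edgeR with genotype as a covariate). Of 13468 genes, 7.28% were higher and 12.3% lower. Egr2 passed the filter on low counts only through its spleen samples, so its call adds no support to this count. With at least 10 counts required in every sample, Egr2 was not tested. In that setting 5 of 8 members were called, Egr1 among them, against 1762 of 8579 genes in either direction. The median log2 difference of the 9 members was 1.79, against -0.18 over all genes tested. In 5 members (Junb, Jund, Egr1, Egr2 and Atf3) every spleen sample exceeded every BM sample, which held for 9.11% of all genes. In 0 was every spleen sample lower, which held for 17.4%. Egr2 enters both the median and the count without overlap, and adds no support to either. In bulk samples such as these, more cells that carry a transcript and more RNA per cell cannot be told apart.

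Junb had the most stable difference. It was at 70.1 to 134 CPM in the 6 BM samples (median count 1901.5) and at 380 CPM in WT spleen and 339 and 279 CPM in DNGR-1 KO spleen. The lowest spleen value was thus far above the highest BM value. The difference was 1.79 ± 0.22 on the log2 scale, or 3.46-fold (edgeR adjusted p = 7.71e-04), and every one of the 16 alternative settings tried kept the call (log2 1.52 to 1.95, adjusted p up to 0.029). Of its exonic bases, 7.52% overlap Prdx2 on the opposite strand, and how strand was handled in counting is not given in the sources used here. Prdx2 was at 198 to 809 CPM in BM and at 151 to 277 CPM in spleen.

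Egr2 had the largest difference. It was at 0 counts in 3 of the 6 BM samples and at 4, 8 and 27 counts in the others, against 830 counts in WT spleen and 419 and 330 in DNGR-1 KO spleen. In CPM this was 0.329 ± 0.519 (SD, n = 6) in BM and 49.4, 23.5 and 14.0 in spleen, with no overlap. The log2 difference was 6.57 ± 1.48 (edgeR adjusted p = 0.0135), a size that rests on BM counts near the floor. It was 5.21 and no longer passed the threshold without the WT spleen sample (edgeR adjusted p = 0.0838).

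Atf3 was at 2.33 to 5.71 CPM in BM, 22.9 CPM in WT spleen and 24.2 and 9.83 CPM in DNGR-1 KO spleen, a log2 difference of 2.34 ± 0.54 (edgeR adjusted p = 0.0154). The groups did not overlap, although the lowest spleen sample was nearer to BM than to the other two. Without the WT spleen sample the adjusted p was 0.0581. Jund, another Jun family gene, was scarce, with 11 to 24 counts in the BM samples, 50 in WT spleen and 87 and 164 in DNGR-1 KO spleen. Its log2 difference was 2.30 ± 0.64 (edgeR adjusted p = 0.0343), and 9 of the 16 alternatives ended the call. The antisense gene Gm11175 covers 52.6% of the exonic bases of Jund and was at 0 counts in every sample, and without a stated strand setting the reads of such a pair cannot be told apart. Ier2 was at 58.0 to 116 CPM in BM and at 228, 114 and 168 CPM in spleen, and the ranges touched. Its log2 difference of 0.87 ± 0.27 stood at the threshold (edgeR adjusted p = 0.0499) and was lost in 9 of the 16 alternatives, being 0.50 without the WT spleen sample (adjusted p = 0.319).

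Fos, the highest member in BM, did not pass the test between tissues. It was at 235 to 522 CPM in BM, 269 CPM in WT spleen and 252 and 155 CPM in DNGR-1 KO spleen, and the ranges overlapped. The log2 difference was -0.59 ± 0.30 (edgeR adjusted p = 0.197). Jun was at 81.2 to 132 CPM in BM and 151, 170 and 95.2 CPM in spleen (0.41 ± 0.24, edgeR adjusted p = 0.286), and Fosb at 3.11 to 18.3 CPM in BM and 13.9, 8.92 and 13.5 CPM in spleen (0.49 ± 0.61, edgeR adjusted p = 0.643). Ranges of the tissues overlapped for each of the 3 genes. The antisense gene Junos, which covers 7.28% of the exonic bases of Jun, had 0 to 6 counts by sample. Egr1 (chr18:34859823-34864984) was at 2.61 to 5.14 CPM in BM, and at 5.18 CPM in WT spleen but 42.7 and 14.5 CPM in DNGR-1 KO spleen. Its log2 difference of 2.18 ± 0.74 missed the threshold (edgeR adjusted p = 0.0659), passed it in DESeq2 (log2 2.23, adjusted p = 0.00356), was 2.99 without the WT spleen sample (edgeR adjusted p = 0.0112), and was 1.25 without DNGR-1 KO spleen replicate 1 (adjusted p = 0.148).

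**Figure D2:**
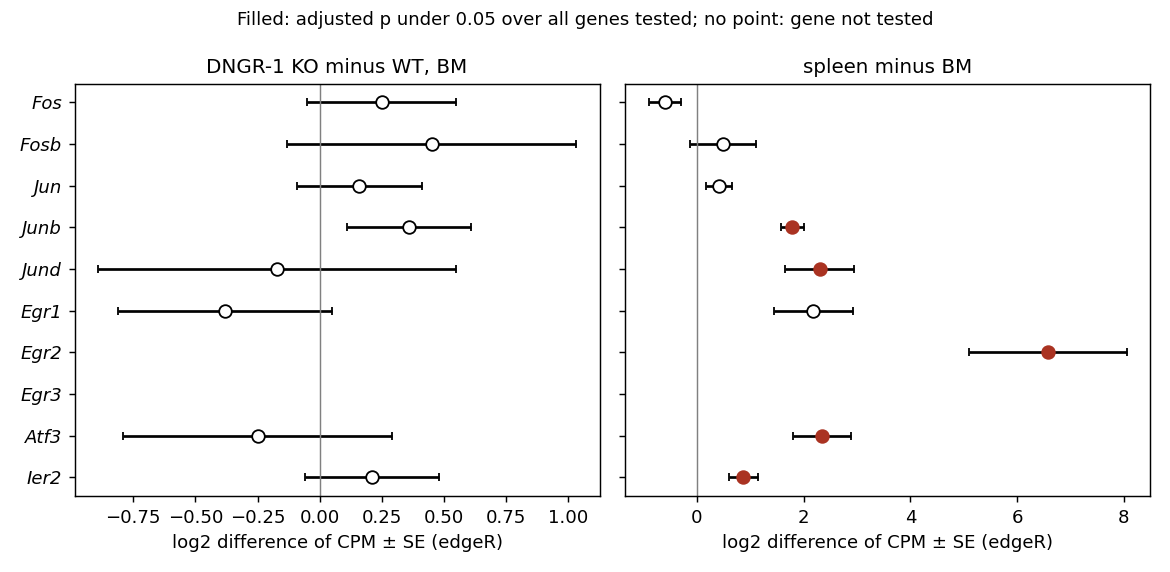
Points are log2 differences of CPM with their SE for DNGR-1 KO minus WT in BM (left, 8 genes tested) and spleen minus BM (right, 9 genes tested); the horizontal axes differ in range. Filled points passed the adjusted p threshold, 0 on the left and 5 on the right (Junb, Jund, Egr2, Atf3 and Ier2).

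Ratios per kilobase within a sample need no scaling between libraries. They were chosen with the levels known, restate those levels, and are given with no test. Fos to Junb was 2.76 to 3.81 in the 6 BM samples and 0.542 to 0.728 in the 3 spleen samples, a log2 difference of -2.40. Junb to Jun was 1.07 to 1.42 in BM and 2.76 to 4.07 in spleen (log2 1.43) and Fos to Jun 3.62 to 5.36 in BM and 2.01 to 2.42 in spleen (log2 -0.98). In each of these 3 the tissues did not overlap. Fos to Fosb ran from 67.3 to 233 in BM and from 30.5 to 75.1 in spleen, which overlap (log2 -1.28).

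Of all Fos, Fosb, Jun, Junb and Jund transcripts per kilobase, Fos made up 61.3% to 68.3% in BM and 29.5% to 34.6% in spleen, a difference of -32.28 percentage points. This share was close among samples of a tissue, including DNGR-1 KO BM replicate 2, which had the highest Fos, Fosb, Jun and Junb of the BM samples. Between genotypes in BM all 5 measures overlapped. The Fos share was 62.8% to 67.0% in WT BM and 61.3% to 68.3% in DNGR-1 KO BM.

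**Figure D3:**
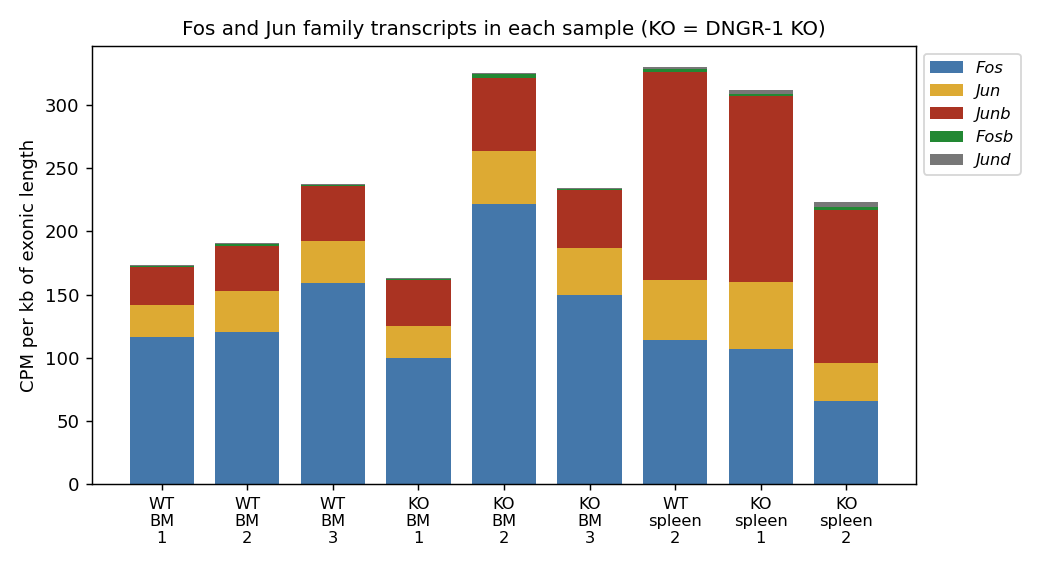
Stacked bars give the level of Fos, Jun, Junb, Fosb and Jund in CPM per kilobase of exonic length in each of the 9 samples. Fos is the largest part of every BM bar (61.3% to 68.3%) and Junb exceeds Fos in all 3 spleen bars.

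The cells and conditions that moved with tissue were read beside these genes. Among the spleen samples, WT spleen replicate 2 had the lowest haemoglobin share (0.85%) and the lowest summed T and NK cell markers (975 CPM), and in it Junb, Egr2, Ier2, Fos and Fosb were at their spleen maximum. DNGR-1 KO spleen replicate 1 had the highest haemoglobin share (4.66%), and Jun, Egr1 and Atf3 were highest there. DNGR-1 KO spleen replicate 2 had the highest T and NK cell markers (3950 CPM) and the highest Jund, and it was the lowest spleen sample for 5 members (Fos, Jun, Junb, Egr2 and Atf3). The summed monocyte and macrophage markers overlapped between tissues (1270 to 2080 CPM in BM, 1250 to 2510 CPM in spleen), as did those of B cells and plasmacytoid DC. Of the lists that differed, T and NK cell markers had 8 of 8 tested genes higher in spleen, erythroid markers 5 of 7, and monocyte and macrophage markers 4 of 8. Neutrophil markers had 6 of 6 lower (edgeR, against 7.28% higher and 12.3% lower over all genes). Only 2 T and NK cell markers passed the filter on low counts in BM alone. Genes that pass the filter through a single tissue are bound to be higher there, so these counts describe the lists and are no test. The part of these cells in the differences of AP-1 genes was not tested.

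Early response genes outside the 10 members also rose. Of 34 on the list, 30 were tested, and 15 were higher and 0 lower in spleen (edgeR, against 7.28% and 12.3% of all genes), with a median log2 difference of 1.14. Nfkbia, which encodes the inhibitor of NF-kB that NF-kB itself induces, went from 104 to 159 CPM in BM to 437, 332 and 303 CPM in spleen (log2 1.51 ± 0.19, edgeR adjusted p = 9.42e-04). Nfkbiz, a nuclear relative of it, rose from 3.32 to 7.75 CPM in BM to at least 24.5 CPM in each spleen sample (2.63 ± 0.40, adjusted p = 0.00245). Nr4a1, an orphan nuclear receptor induced by antigen receptor and growth factor signals, was at 4.61 to 14.2 CPM in BM and at 329, 42.7 and 74.2 CPM in spleen (4.08 ± 0.64, adjusted p = 0.00282). For all 3 the lowest spleen sample was above the highest BM sample.

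The rest of the AP-1 and ATF family gave no call between tissues in edgeR. Of 19 listed genes 14 were tested, and 0 passed the threshold (3 at an unadjusted p under 0.05, median log2 0.12), whereas DESeq2 called 3 and limma-voom 1. Over all 13468 genes edgeR called 2631, DESeq2 3946 and limma-voom 3388. Among the kinases and factors that lie upstream, all 19 were tested and 2 were higher in spleen and 0 lower (edgeR, against 7.28% and 12.3% of all genes). When a sample was left out, 1 to 3 were called, and 1 was called without any single BM sample or without the WT spleen sample. The 2 genes were Elk3, from 8.85 to 15.2 CPM in BM to 25.8, 29.1 and 33.8 CPM in spleen (2.47-fold, edgeR adjusted p = 0.0189), and Elk4, from 18.5 to 26.8 CPM to 47.2, 28.2 and 47.3 CPM (1.95-fold, edgeR adjusted p = 0.0361). Both encode partners of serum response factor. None of these 4 lists had a gene past the threshold between genotypes in BM (edgeR, 0 of 14, 30, 12 and 19 tested, with 1 early response gene, Btg2, at an unadjusted p under 0.05).

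Heat shock and chaperone genes, which like the members are known to respond to warming and stress of cells, gave a few calls, all lower in spleen. Of 14 listed genes 12 were tested, with 0 higher and 3 lower in spleen (edgeR, against 7.28% and 12.3% of all genes). None of the 12 was called without the WT spleen sample and 1 without DNGR-1 KO BM replicate 1. Their summed level was 6830 to 9290 CPM in BM and 5700 to 6720 CPM in spleen. Dnajb1, an Hsp40 co-chaperone, fell from 125 to 153 CPM in BM to 37.6, 45.5 and 101 CPM in spleen (log2 -1.25 ± 0.30, edgeR adjusted p = 0.0168). Hsp90aa1, the inducible cytosolic Hsp90, fell from 1000 to 1890 CPM to 607, 648 and 725 CPM (-0.96 ± 0.23, adjusted p = 0.0182). Hspa1a, the inducible Hsp70, had 0 to 119 counts in BM and 0 in every spleen sample (adjusted p = 0.0432). Hspa1a passed the filter on low counts only through its BM samples, so its call adds no support to the count of 3. Released cells were not measured at other times or temperatures, and the part of handling in these differences was not tested.

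**Figure D4:**
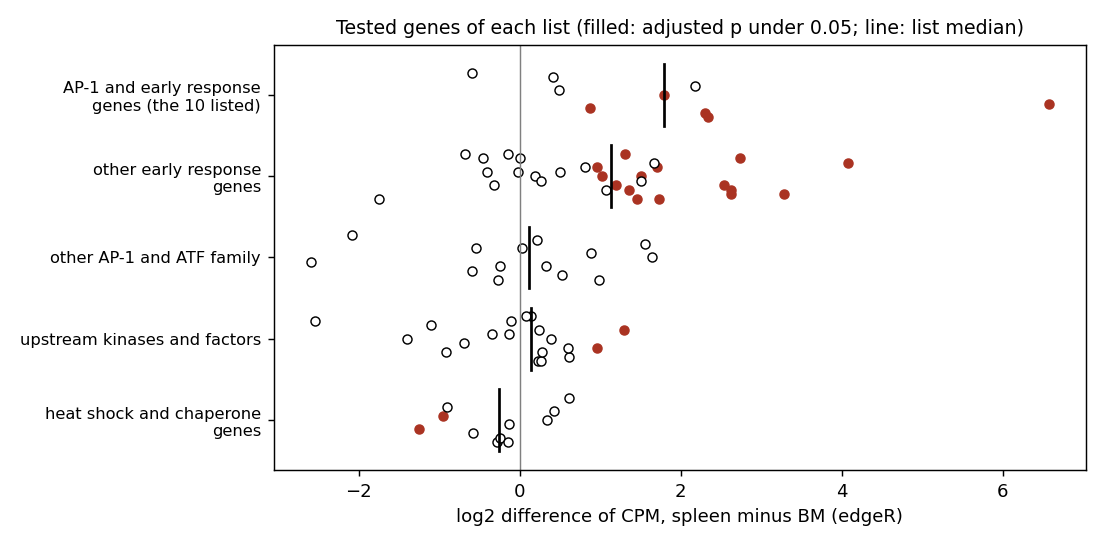
Each point is the log2 difference of CPM, spleen minus BM, of 1 tested gene of the 10 members or of a related list, with a line at the list median (1.79 for the members, 1.14 for other early response genes). Filled points passed the adjusted p threshold. Hspa1a, at 0 counts in every spleen sample, has no point but enters the median. Egr2, which passed the filter on low counts only through spleen, enters the median of the members.

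The last question was whether genotype mattered in spleen, where a lone WT sample stood against 2 DNGR-1 KO samples and was assumed to vary like the other groups. None of the 9 tested members passed the threshold (edgeR, 4-group fit of all 9 samples), while 10.8% of all genes did, and 1 member had an unadjusted p under 0.05. That was Egr1, with 87 counts in WT spleen and 760 and 343 in DNGR-1 KO spleen, a log2 difference of 2.46 ± 0.89 (unadjusted p = 0.0224, adjusted p = 0.131). DESeq2 called Egr1 (log2 2.44), but it called more genes over all than edgeR did, here and in the interaction. Egr1 was not called in limma-voom (2.20) or by edgeR in the spleen samples alone (2.45). In edgeR its log2 difference was 3.04 without DNGR-1 KO spleen replicate 2 and 1.51 without replicate 1. Each of these left 1 sample per genotype in spleen. In BM its difference was -0.38 ± 0.43, and the difference between these differences was 2.85 ± 1.02 (edgeR interaction, unadjusted p = 0.0216, adjusted p = 0.143). No member passed the interaction test in edgeR, against 8.85% of all genes, and DESeq2 called 1, Egr1 (adjusted p = 0.0333). In edgeR the Egr1 interaction was 3.42 without DNGR-1 KO spleen replicate 2 and 1.87 without replicate 1. The counts over all genes depended on the fit, since limma-voom called 45 genes between genotypes in spleen and 0 in the interaction, and edgeR on the spleen samples alone called 0.

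In the related lists, 1 of 14 AP-1 and ATF genes, 4 of 30 early response genes, 0 of 12 heat shock genes and 2 of 19 upstream genes passed the threshold between genotypes in spleen in the same fit (edgeR, against 10.8% of all genes). That is near the share over all genes, and the genes are named after their values were seen. Fosl2, Dusp5, Csrnp1 and Mapk9 were higher in DNGR-1 KO spleen, and Nr4a1, Gadd45b and Nab2 were lower. Of the first 4, Fosl2, Dusp5 and Mapk9 had 0 counts in the WT spleen sample and Csrnp1 had 2, although the BM samples had 112 to 320 counts of Fosl2 and 574 to 956 of Mapk9. That WT spleen sample also had the fewest genes above 3 counts (10813). Gadd45b had 1181 counts in WT spleen and 157 and 251 in DNGR-1 KO spleen, and Nab2, a corepressor of Egr proteins, had 159 against 0 and 5. These differences rest on 1 WT sample.

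Genes whose pattern was most like that of the members were ranked by Pearson's r with the mean log2 CPM of the 9 detected members, a minimum mean of 10 CPM being required. Over all 9 samples the 5 highest of 8661 genes were Nfkbia (r = 0.976), Stap1 (0.973), Bcl2a1d (0.973), Emp1 (0.972) and Rasgrp4 (0.971). Over the 6 BM samples the 5 highest of 8439 were Dhx58 (0.978), Il2rg (0.977), Zzef1 (0.969), Reep3 (0.963) and Stk40 (0.956). The 2 lists shared no gene. The 9 points fall at separate levels by tissue (mean log2 CPM 3.45 to 4.31 in BM and 5.22 to 5.63 in spleen). Among the 6 the point of DNGR-1 KO BM replicate 2 stands apart, in part through Egr2, whose BM counts are near the floor. All values of a sample come from the same library.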

How the data were processed

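RNA-seq was measured in 9 pre-cDC samples (WT BM 3, DNGR-1 KO BM 3, WT spleen 1, DNGR-1 KO spleen 2), grouped by labelled genotype and tissue and numbered by the digit in the title. The WT labels disagree on the CD45 allele, and CD45.1 was taken from the methods. Cells were sorted into lysis buffer, and total RNA was depleted of ribosomal RNA. The values deposited per gene were expected counts without normalization (25.6% of nonzero values were not whole numbers), and were rounded to whole numbers for the tests. The submitters' processing notes name Trimmomatic 0.36, STAR 2.5.2, RSEM 1.3.0 and DESeq2 1.18.1 with GRCm38; the annotation and strand setting are not given in the sources used here. A second deposited table of transformed values was not used.

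Gene symbols came from GENCODE M21, and 51719 of 51912 identifiers had one. Counts were tested with edgeR 4.0.16 (R 4.3.3; TMM, filterByExpr, quasi-likelihood), and adjusted by Benjamini-Hochberg over all genes tested at a threshold of 0.05. BM genotype was fitted on the 6 BM samples, tissue on all 9 with genotype as covariate, and spleen genotype and the interaction on a 4-group fit of all 9. Alternatives were RLE size factors, DESeq2 1.42.0, limma-voom (limma 3.58.1), no filter, at least 10 counts in every sample, a replicate block, other sample sets, a score of genes in the congenic chromosome 1 segment as covariate, and leaving out each sample. The fits were tested on simulated data. At a log2 change of 2 the BM genotype fit recovered 72.3% of changed genes and the tissue fit 31.4%, and at 4 they recovered 95.4% and 73.0%. Of the BM calls, 10 of 148 and 19 of 206 were of unchanged genes, and of the tissue calls 0 of 60 and 3 of 146. A gene that did not pass may therefore still differ. log2 CPM used a prior count of 2. Replicates differed by more than counting noise (chi-square per gene 28.9 to 257). Samples were pools of mice, and p-values measure the spread between these samples. The main fits took the samples as independent, although some shared mice. Intervals and the 3-count floor cover counting error only.

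The members and lists were chosen with earlier results of these data known. Named genes were the 10 members; of each related list, those past the threshold in BM and the 3 of lowest adjusted p in each direction between tissues; the 5 genes most like the members; and Clec9a.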

Additional observations from a re-analysis of the deposited data

How the results depend on the processing

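No member was called between genotypes in BM in any of 14 alternatives, and no gene of the 4 related lists in any of the 9 run for them. Between tissues the 5 called members became 3 without a filter on low counts, 2 in the DNGR-1 KO samples only and 1 (Junb) with the replicate block (Egr2 5.83, Jund 2.12, Atf3 2.10 and Ier2 0.82 on the log2 scale), and 3 to 5 when a sample was left out. The 3 came without WT BM replicate 2, WT BM replicate 3, DNGR-1 KO BM replicate 1, DNGR-1 KO BM replicate 3, WT spleen replicate 2 or DNGR-1 KO spleen replicate 2. Jund and Ier2 each missed the threshold in 9 of 16 alternatives, Atf3 in 3 of 16 and Egr2 in 3 of 15. With the replicate block, 8 other early response genes, 1 heat shock gene and 0 upstream genes were called. Same-numbered BM samples had deviations correlated at 0.103, 0.099 and -0.082, and the main fits did not take the numbers as pairs. Correlations from so few samples cannot show whether equal numbers mark shared mice, so the calls lost with the block are uncertain. The congenic score, which overlapped between genotypes, changed no call of a member. Other AP-1 and ATF genes had 3 calls in DESeq2, 1 in limma-voom and 0 to 2 when a sample was left out, and heat shock genes 5 in DESeq2 and 0 to 3. Over all 13468 genes DESeq2 called 3946 between tissues and limma-voom 3388, against 2631 in edgeR. Other early response genes had 11 to 15 and upstream genes 1 to 3 when a sample was left out.

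Between genotypes in spleen and in the interaction, DESeq2 called 1 member, Egr1, and more genes over all than edgeR did. Leaving out a DNGR-1 KO spleen sample left 1 sample per genotype in spleen, so only effect sizes are given for it. Differences that no fit called changed sign when a sample was left out. In BM the log2 ranges were -0.06 to 0.50 (Fos), -0.32 to 0.90 (Fosb), -0.47 to 0.01 (Jund) and 0.00 to 0.35 (Ier2). In spleen they were -0.64 to 0.17 (Jun) and -1.20 to 0.08 (Atf3), and in the interaction -0.83 to 0.00 (Jun), -1.24 to 0.02 (Fosb) and -0.98 to 0.36 (Atf3). With the replicate block the Fosb difference was 0.45 in spleen and 0.05 in the interaction. The cause was not tested. At 17103806 to 23722298 counts a library, Egr2 in BM and Egr3 everywhere were at or near 0 counts.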
